A study of Homo sapiens with 4 samples.

Results

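The integrated stress response and serine synthesis genes driven by the transcription factor ATF4 were followed across 4 arrays of SUM159 cells. The 32 listed genes were looked up among probe sets, the short oligonucleotide groups that each report 1 transcript, and 31 had at least 1 probe set annotated to them alone. They held 61 of the 41091 probe sets with a single gene, and 53 of these reached a log2 level of 6, taken here as the edge of background, in at least 1 array. Each gene is given by its brightest probe set, judged by the mean of all arrays. By that measure 27 genes were measured. MTHFD1L, ALDH1L2, FGF21 and VLDLR stayed under a level of 6 in all 4 arrays, and GPT2 had no probe set of its own. All 27 measured genes also reached that level in at least 1 ALDH- array, so that none entered through the ALDH+ arrays alone.

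SUM159 is an established mesenchymal human breast cancer line. All cells carried the pTRIPZ construct, from which doxycycline induces the microRNA miR-100, were flow-sorted by aldehyde dehydrogenase (ALDH) status and were cultured in suspension. The groups were ALDH+ control, ALDH+ DOX, ALDH- control and ALDH- DOX, with 1 array each. The titles name doxycycline for 10 h, whereas the descriptions name doxorubicin and 13 h, so the treated groups are called DOX here. Cells without the construct that received DOX were not analysed here. With 1 array per group, a difference between 2 arrays has no replicate check. In RNA of a whole sorted fraction, fewer cells expressing a gene and less RNA per cell cannot be told apart.

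In the integrated stress response, kinases such as PERK and GCN2 phosphorylate the initiation factor eIF2 when proteins misfold or amino acids run short. General translation then slows while the ATF4 message is translated more, and ATF4, often with C/EBP partners, switches on genes for amino acid synthesis, uptake and tRNA charging. Serine made from a glycolytic intermediate supplies the mitochondrial folate enzymes with one-carbon units. Transcript levels do not report eIF2 phosphorylation or ATF4 protein.

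ATF4 and its C/EBP partners are known to bind a composite site read as TGATGNAA. Promoter windows from RefSeq (GRCh38.p14, 250 bases before to 50 after an annotated start) were searched for it on both strands. Windows were found for 26 of the listed genes, and 5 of these (19.2%) held a match, against 1217 of 27305 genes (4.46%) with a window. Counted by window, 7 of 40 held it, against 3.62% of all windows. The genes were listed as ATF4 pathway genes, so that a share above that of all genes can follow from the listing alone. The 5 matching stretches are shown because they place the site in members that differed strongly and in members below background alike, with the match in capitals and each read in the direction of its gene.
CHAC1: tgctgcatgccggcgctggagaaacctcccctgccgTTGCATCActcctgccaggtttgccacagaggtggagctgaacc
ASNS: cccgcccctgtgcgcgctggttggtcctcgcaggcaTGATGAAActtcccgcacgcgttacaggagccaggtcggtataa
CEBPG: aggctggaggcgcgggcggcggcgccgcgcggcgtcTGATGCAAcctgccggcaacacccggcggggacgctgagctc
FGF21: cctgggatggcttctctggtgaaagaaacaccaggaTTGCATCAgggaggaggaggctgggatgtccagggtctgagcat
MTHFD1L: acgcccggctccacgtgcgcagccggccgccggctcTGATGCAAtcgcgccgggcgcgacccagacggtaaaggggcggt
In CHAC1 (chr15:40953226-40953305, plus strand) the match begins 209 bases before the start and lies on the opposite strand, so that TGATGCAA reads as TTGCATCA. FGF21 (chr19:48755434-48755513, plus strand) has the same opposite-strand form 54 bases before its start. The ASNS match (chr7:97872433-97872512, minus strand) begins 68 bases before the start, that of CEBPG (chr19:33374035-33374112, plus strand) 42 bases before, and that of MTHFD1L (chr6:150866321-150866400, plus strand) 129 bases before 1 of its annotated starts. A match is a stretch of letters and not a shown binding site. CHAC1, ASNS and CEBPG were higher in ALDH+ cells, as given below, while FGF21 and MTHFD1L lay below background in all 4 arrays.

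Markers of the line and of the sort were checked first. VIM, a mesenchymal marker, lay between 13.64 and 13.79, FN1 between 13.13 and 13.39 and ZEB1 between 11.07 and 11.46. SNAI2, also listed as mesenchymal, was at 11.15 and 10.56 in the ALDH+ arrays and at 11.52 and 11.59 in the ALDH- arrays. CDH1, EPCAM, ESR1 and PGR were under 6 in all 4 arrays. ERBB2, listed with these as an epithelial and receptor marker, was measured in all arrays, between 9.22 and 10.17. ALDH1A1 was higher in ALDH+ control (11.77) than in ALDH- control (10.72), but not in ALDH+ DOX (10.66) against ALDH- DOX (10.86). ALDH1A3 was at 6.48 in ALDH+ control and 5.86 in ALDH- control. In the DOX arrays it was lower in ALDH+ (6.64) than in ALDH- cells (7.79), a difference of -1.15. ALDH2 and ALDH3A1 were under 6 in all 4 arrays. Of 9 markers of immune, red and endothelial cells 8 had a probe set and 2 reached a level of 6, HBB and MS4A1; PTPRC, CD3E, CD14, LYZ, VWF and CDH5 did not. On these probe sets HBB reached 6 in the ALDH+ arrays only (6.98 and 6.44), and MS4A1 in ALDH+ DOX only (6.21). The summed log2 level of all 8, most of it from values under 6, was 38.9 and 39.7 in the ALDH+ and 36.5 and 35.5 in the ALDH- arrays. The 3' minus 5' control difference was 0.56 and 0.33 for GAPDH in the ALDH+ arrays against 0.87 and 0.98 in the ALDH- arrays. For ACTB this difference was larger, at 3.11 in ALDH+ control, 3.50 in ALDH+ DOX, 3.70 in ALDH- control and 3.87 in ALDH- DOX. The 3' probe set of 18S ribosomal RNA was at 10.40 in ALDH+ DOX and between 11.24 and 12.29 elsewhere. The part of these in the ALDH difference was not tested. The control comparison of the fractions leaves out ALDH+ DOX. Beside a mean difference that passed, it is given where it departs from that mean by over 1.5 times.

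Most of the pathway's effectors were higher in ALDH+ than in ALDH- cells, and this held in the control arrays and again in the DOX arrays, which share no array with them. In the control arrays 14 of the 27 measured genes were higher by 2-fold or more (a log2 difference of at least 1), against 6.09% of all genes, and none was lower by that much, against 4.40%. In the DOX arrays 14 were higher by that much, against 11.4% of all genes, and none was lower, against 5.32%. These were the same 14 genes, where 4.82% of all genes were 2-fold higher in both comparisons. The median difference over the 27 genes was 1.08 in the control arrays and 1.02 in the DOX arrays, on the log2 scale, against 0.00 and 0.08 over all genes. Both ALDH+ arrays lay above both ALDH- arrays for 21 of the 27 genes, against 35.6% of all genes, and below both for 3, against 30.2%. The genes were listed with earlier results of these data known. Shares above those of all genes, here and below, can therefore follow from the listing.

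An additive limma model over all 12365 genes at background or above, with ALDH fraction and DOX as its terms, tested the mean ALDH difference with 1 residual degree of freedom. Of the 27 measured genes, 18 were higher and 1 was lower at a Benjamini-Hochberg adjusted p under 0.05, against 13.5% higher and 9.58% lower among all genes. The 18 higher genes ranged from 1.45-fold for MTHFD2 to at least 16.9-fold for CHAC1, a lower bound because CHAC1 was under the level of 6 in ALDH- DOX and is set to 6 there. The p-values reflect only how these arrays scatter, which may be technical, since nothing says that they came from separate sorts. Without the trend of variance on level the count of higher genes was 15. Across the 27 genes the 2 ALDH differences, in control and in DOX arrays, lay a median of 0.14 apart, against 0.30 over all genes. Their Pearson correlation was 0.955, against 0.757 over all genes; this is a description across genes that share the same arrays.

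**Figure D1:**
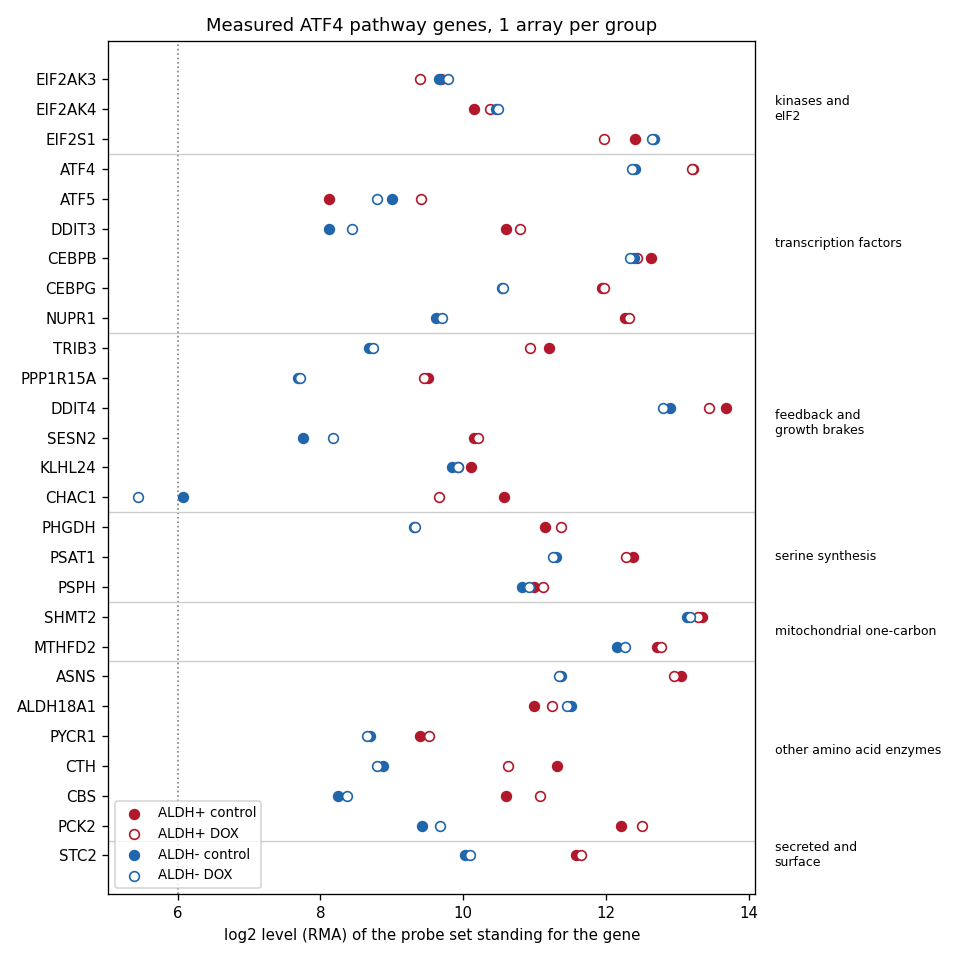
Log2 level (horizontal axis, RMA) of the 27 measured genes in each of the 4 arrays, grouped by role; filled points are control and open points DOX, red ALDH+ and blue ALDH-, and the dotted line marks the level of 6. The red pair lies to the right of the blue pair for genes such as PCK2, NUPR1, DDIT3 and CHAC1, and the pairs overlap for EIF2AK3, KLHL24 and ATF5; levels are comparable within a gene only.

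On the brightest probe sets, the start of the pathway showed no such shift. EIF2AK3, which encodes PERK, the kinase that senses misfolded protein in the endoplasmic reticulum, was at 9.68 in ALDH+ control, 9.40 in ALDH+ DOX, 9.66 in ALDH- control and 9.79 in ALDH- DOX. EIF2AK4, which encodes GCN2, the sensor of uncharged tRNA, was at 10.16, 10.38, 10.46 and 10.49 in the same order, which is kept from here on. Neither passed, with mean ALDH differences of -0.18 ± 0.25 (SE) and -0.21 ± 0.22 (limma adjusted p = 0.648 and 0.536). The second EIF2AK4 probe set differed by 0.63 in the control arrays and by -2.02 in the DOX arrays. EIF2S1, the eIF2 subunit that these kinases phosphorylate, was at 12.40, 11.98, 12.67 and 12.65, so that both ALDH+ arrays lay below both ALDH- arrays. Its mean difference was -0.47 ± 0.12 (SE, limma adjusted p = 0.0165), the only lower call among the 27, with -0.27 for control and -0.67 for DOX arrays. That call rests on a probe set of a kind that can hybridise to several transcripts (names ending in _s_at or _x_at). The EIF2S1 probe set that is not of this kind gave -0.01 and did not pass. The higher calls of NUPR1, DDIT4, SESN2, PSAT1 and PYCR1, given below, also rest on probe sets of this kind alone.

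Among the transcription factors, ATF4 itself was moderately higher and several of its partners and targets more so. ATF4 was at 13.22, 13.21, 12.40 and 12.36, with the 2 arrays of each fraction within 0.04 of each other. The mean difference was 0.84 ± 0.09 (SE, limma adjusted p = 8.25e-05), or 1.79-fold. CEBPG, a C/EBP family partner of ATF4, was at 11.95, 11.98, 10.54 and 10.56, a mean difference of 1.41 ± 0.17 (SE, limma adjusted p = 0.000145). CEBPB, another C/EBP factor, was at 12.63, 12.44, 12.40 and 12.34 and did not pass (0.17 ± 0.11 SE, limma adjusted p = 0.31).

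DDIT3, which encodes CHOP, the factor tied to cell death under prolonged stress, was at 10.61 and 10.80 in the ALDH+ arrays and at 8.12 and 8.44 in the ALDH- arrays. The 2 fractions did not overlap, with a mean difference of 2.42 ± 0.25 (SE, limma adjusted p = 4.19e-05), or 5.35-fold. NUPR1, a small stress-induced chromatin protein, was at 12.27, 12.32, 9.62 and 9.71, or 6.18-fold higher in ALDH+ cells (2.63 ± 0.19 SE, limma adjusted p = 5.01e-06). ATF5, a relative of ATF4 whose message is also translated under stress, went apart from these. It was at 8.12 in ALDH+ control and 9.41 in ALDH+ DOX, with the ALDH- arrays between them at 9.01 and 8.79. The ALDH difference was therefore -0.89 in control and 0.62 in DOX arrays, and the mean did not pass (-0.14 ± 0.34 SE, limma adjusted p = 0.819).

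Feedback genes and brakes on growth held the largest difference of all. CHAC1, which degrades glutathione, was at 10.58, 9.66, 6.08 and 5.44, so that its ALDH- arrays lay at the edge of background. Its mean difference was 4.36 ± 0.28 (SE, limma adjusted p = 3.97e-06), and both single differences, 4.50 and 4.22, were the largest of the 27 genes. With the ALDH- DOX array set to the level of 6, the mean was at least 4.08 and the difference in the DOX arrays at least 3.66, or at least 12.6-fold. TRIB3, a pseudokinase that ATF4 and CHOP induce and that restrains them, was at 11.21, 10.94, 8.68 and 8.74 (2.36 ± 0.24 SE, limma adjusted p = 4.14e-05). PPP1R15A encodes GADD34, which recruits the phosphatase that reverses eIF2 phosphorylation. It was at 9.51, 9.44, 7.69 and 7.72, or 3.42-fold higher (1.77 ± 0.26 SE, limma adjusted p = 0.000619), and its second probe set differed by 1.78 and 1.74 in the 2 comparisons.

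SESN2 and DDIT4, which both restrain mTORC1, were also higher. SESN2 was at 10.15, 10.20, 7.76 and 8.18, a mean difference of 2.21 ± 0.26 (SE, limma adjusted p = 0.00012). DDIT4 was at 13.68, 13.45, 12.90 and 12.80, a smaller difference of 0.71 ± 0.08 (SE, limma adjusted p = 8.25e-05) that did not pass without the variance trend. KLHL24, a ubiquitin ligase adaptor, depended on the probe set. Its brightest one, of the shared kind, was at 10.11, 9.92, 9.85 and 9.93 and did not pass (0.13 ± 0.24 SE, limma adjusted p = 0.75). The other 4 KLHL24 probe sets differed by 1.79 to 2.16 in the control arrays and by 0.85 to 1.89 in the DOX arrays. The probe set at 0.85 was under 6 in both ALDH- arrays (5.53 and 5.22), so that it was measured only through the ALDH+ arrays. Without the shared kinds KLHL24 passed with a mean difference of 1.80.

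**Figure D2:**
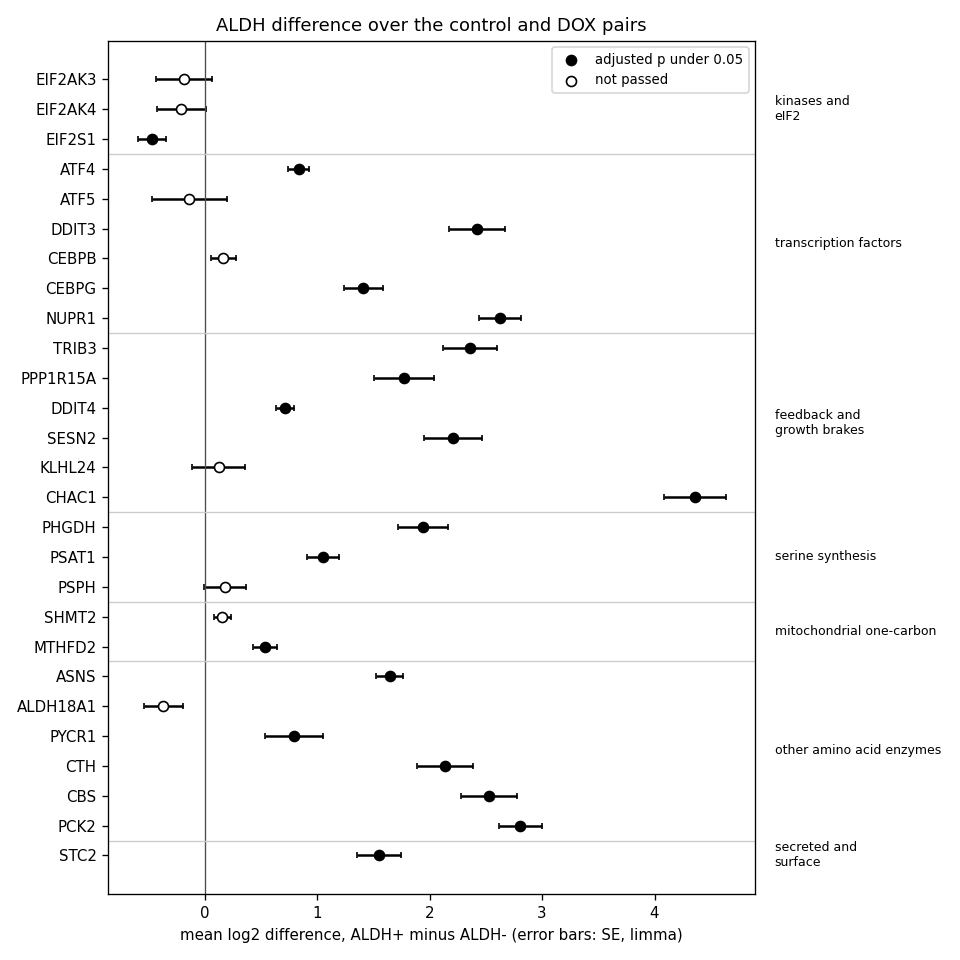
Mean log2 difference, ALDH+ minus ALDH-, over the control and DOX pairs (horizontal axis) for the 27 measured genes by role; bars are the SE of the additive limma model and filled points passed at an adjusted p under 0.05. The 18 filled points to the right of 0 reach from MTHFD2 at 0.54 to CHAC1 at 4.36, and the 3 genes of the kinases and eIF2 lie left of 0.

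The serine pathway was higher at its first steps. PHGDH, which commits the glycolytic intermediate to serine, was at 11.15 and 11.37 in ALDH+ cells and at 9.31 and 9.33 in ALDH- cells. The difference was 1.94 ± 0.22 (SE, limma adjusted p = 9.52e-05), or 3.84-fold. PSAT1, the transaminase of the next step, was at 12.37, 12.28, 11.29 and 11.26 (1.05 ± 0.14 SE, limma adjusted p = 0.000303). Its difference of 1.02 in the DOX arrays barely passed 2-fold, and was 0.99 with each array centred on its median and 0.94 with the mean of its probe sets. The second PSAT1 probe set differed by 2.12 for control and 0.86 for DOX arrays. PSPH, the phosphatase of the last step, was at 10.99, 11.12, 10.82 and 10.93. Its mean difference of 0.18 ± 0.19 (SE) did not pass (limma adjusted p = 0.532). The other 2 PSPH probe sets, both of the shared kind, differed by 0.45 and 1.33 in the control but by -0.85 and 2.04 in the DOX arrays. The probe set at 1.33 and 2.04 was under 6 in both ALDH- arrays (5.52 and 5.67), so that it was measured only through the ALDH+ arrays.

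Downstream of serine, the mitochondrial folate enzymes differed less. MTHFD2 was at 12.72, 12.77, 12.16 and 12.27, without overlap of the fractions (0.54 ± 0.11 SE, limma adjusted p = 0.00407); it did not pass without the variance trend. SHMT2, which splits serine into glycine and a one-carbon unit, was at 13.34, 13.30, 13.14 and 13.18 and did not pass (0.16 ± 0.08 SE, limma adjusted p = 0.169). Its other 2 probe sets differed by 0.50 and 0.77 in the control arrays, and SHMT2 passed at 0.57 without the shared kinds and at 0.51 with the mean of its probe sets. MTHFD1L ranged from 4.29 to 5.13 and ALDH1L2 from 4.19 to 4.57 on their brightest probe sets, below background throughout. Another 3 probe sets annotated to a listed gene together with other genes were not used.

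Enzymes of other amino acids were higher apart from proline synthesis at its first step. ASNS, asparagine synthetase, was at 13.05, 12.95, 11.37 and 11.35, or 3.12-fold higher in ALDH+ cells (1.64 ± 0.12 SE, limma adjusted p = 5.39e-06). That probe set is of the shared kind, and the second ASNS probe set lay near or below background, at 6.1, 5.5, 4.3 and 4.6. PCK2, the mitochondrial enzyme that makes phosphoenolpyruvate, was at 12.22, 12.50, 9.43 and 9.68. Its difference of 2.81 ± 0.19 (SE, limma adjusted p = 4.35e-06) was second to that of CHAC1 among the 27 genes.

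Both enzymes of transsulfuration, which turns homocysteine and serine into cysteine, were higher. CBS was at 10.60, 11.08, 8.25 and 8.37 (2.53 ± 0.25 SE, limma adjusted p = 3.52e-05); the genome also holds a near-identical copy, CBSL, from which its probes may not tell it apart. CTH was at 11.32, 10.63, 8.88 and 8.79 (2.14 ± 0.25 SE, limma adjusted p = 0.000108), with its 2 ALDH+ arrays further from each other than its ALDH- arrays. In proline synthesis, ALDH18A1, the first enzyme, was at 10.99, 11.25, 11.51 and 11.46, the reverse order of the fractions, and did not pass (-0.37 ± 0.17 SE, limma adjusted p = 0.152). PYCR1, the last enzyme, was at 9.40, 9.52, 8.69 and 8.65 and passed narrowly (0.79 ± 0.26 SE, limma adjusted p = 0.0429). It did not pass under 3 of the alternatives tried, namely without the variance trend, without the filter on level, and with levels under 6 set to 6.

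Of the secreted and surface members only STC2 was measured. STC2, a secreted glycoprotein linked to calcium and phosphate handling, was at 11.58, 11.65, 10.02 and 10.10, a mean difference of 1.55 ± 0.19 (SE, limma adjusted p = 0.000187). FGF21, a hormone induced by ATF4 in liver and muscle, lay between 5.25 and 5.44, and VLDLR, a lipoprotein receptor, between 3.79 and 4.08. Nothing is read from differences at those levels.

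Probe sets of the same gene mostly agreed on the side of the ALDH difference. In the control arrays 44 of 53 probe sets at background or above had a positive difference, and 28 passed 2-fold, against 5.91% of all probe sets with 1 gene; none was 2-fold lower, against 5.19%. Of 17 genes with at least 2 such probe sets, 15 had all of them on one side, the exceptions being ATF5 and EIF2AK4. In the DOX arrays 42 of 52 were positive, 26 passed 2-fold, against 10.2%, and 2 were that much lower, against 8.54%. There 12 of 16 genes had all on one side, with ATF5, EIF2S1, KLHL24 and PSPH split. The control counts include a probe set each of ASNS, CBS, KLHL24, PSPH and TRIB3 that reached 6 in ALDH+ arrays only. The DOX counts include the same ones apart from that of ASNS. Their positive side was fixed by the filter on level, so that nothing is read from it.

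**Figure D3:**
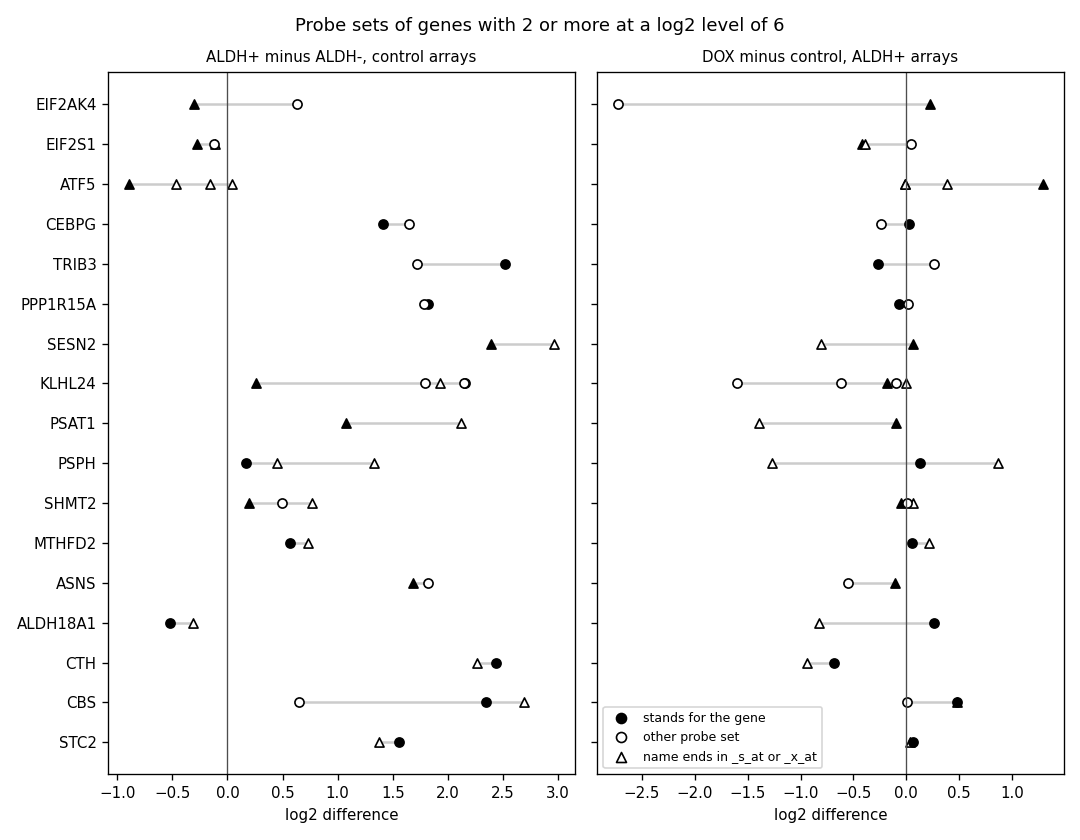
Log2 differences (horizontal axes) of each probe set that reached a level of 6, for members with at least 2 of them, in the ALDH comparison of control arrays (left) and the DOX comparison of ALDH+ arrays (right); filled symbols stand for the gene and triangles are probe sets of the shared kind. On the left the points of most genes lie together to the right of 0, with KLHL24 spread from 0.26 to 2.16, while on the right single probe sets of EIF2AK4, KLHL24, PSAT1 and PSPH lie far to the left of their partners.

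DOX was compared with control within each fraction to ask whether these genes differed with DOX, through which the construct induces miR-100. Without DOX-treated cells that lack the construct, a difference cannot be assigned to miR-100. The 5p arm of the miR-100 hairpin is shown because it is the usual guide strand and defines which messages can pair with it; the labels name only mir-100. Its seed, bases 2 to 8, is in capitals (RefSeq, GRCh38.p14, chr11:122152275-122152296, minus strand).
hsa-miR-100-5p: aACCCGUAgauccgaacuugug
These arrays do not measure the mature microRNA, and target sites in the members were not searched.

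Few of the 27 genes differed by much between DOX and control. In ALDH- cells none differed by 2-fold, against 0.271% of all genes higher and 0.0508% lower, and 26 of the 27 lay within 0.5 of 0. In ALDH+ cells 1 of the 27 genes, ATF5, was higher by 2-fold, which is near the 3.47% of all genes. None was lower, against 2.30%, and 24 of 27 lay within 0.5 of 0. The medians were 0.03 in both pairs, against 0.12 over all genes in ALDH+ and 0.00 in ALDH- cells. In the additive limma model no member passed for the mean DOX difference, and 1, CHAC1, had an unadjusted p under 0.05. Without the variance trend or with robust estimation no member passed either. Among all genes 1 passed as higher (0.00809%) and 0 as lower (0.00%), and at an unadjusted p under 0.05 2.98% were higher and 2.30% lower.

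CHAC1 was lower with DOX in both fractions, from 10.58 to 9.66 in ALDH+ and from 6.08 to 5.44 in ALDH- cells. The mean of -0.78 ± 0.28 (SE) failed the adjustment (limma adjusted p = 0.855), and the ALDH- value starts at the edge of background. CTH differed by -0.69 in ALDH+ and by -0.09 in ALDH- cells, and its second probe set by -0.94 and -0.30. SESN2 in ALDH- cells (0.42) and CBS in ALDH+ cells (0.48) lay on the other side of 0. For ATF4 the DOX differences were -0.01 and -0.04, for CEBPG 0.03 and 0.02, and for ASNS -0.10 and -0.02, so that these genes were nearly level within each fraction.

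ATF5 differed most between the fractions in its DOX difference. It was higher by 1.29 with DOX in ALDH+ and at -0.22 in ALDH- cells, so that the 2 differences lay 1.5 apart. This was the only member past 2-fold by that measure, against 3.78% of all genes higher and 2.40% lower. A count of 1 among the 27 members is near that background. The other 3 ATF5 probe sets differed in ALDH+ cells by 0.38, -0.01 and -0.01, and the mean over its probe sets was 0.41. All 4 are of the shared kind, so that no value remained without them.

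**Figure D4:**
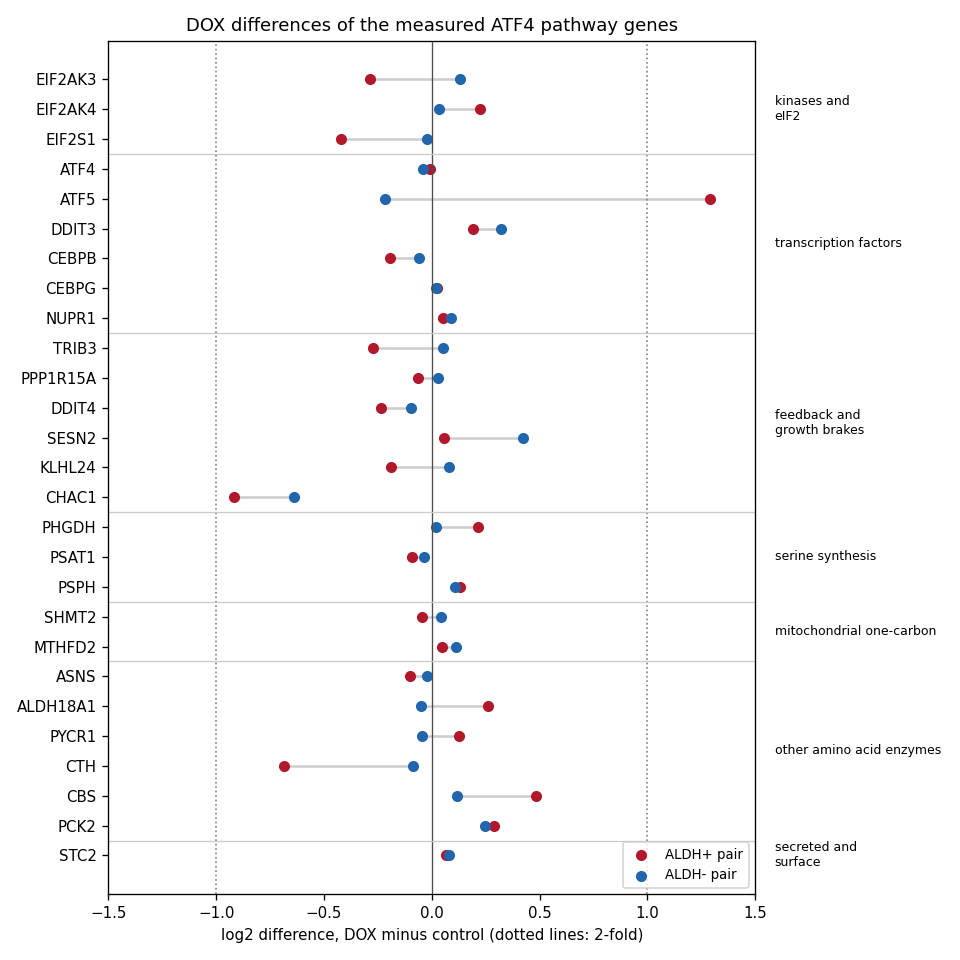
Log2 difference, DOX minus control (horizontal axis), of the 27 measured genes in ALDH+ (red) and ALDH- (blue) cells, by role; dotted lines mark 2-fold. Most points lie within 0.5 of 0, ATF5 in ALDH+ cells lies at 1.29, and both CHAC1 points lie left of 0.

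In the DOX comparison of ALDH+ cells, probe sets of the same gene were often split. Of the 17 genes with at least 2 probe sets at background or above, 7 had all on one side, against 11 of 15 in ALDH- cells. At this level 1 probe set was 2-fold or more higher (3.28% of all probe sets with 1 gene) and 4 were lower (5.78%). A second probe set of EIF2AK4 went from 7.87 to 5.15, a difference of -2.73, where the one standing for the gene differed by 0.22. Other probe sets of KLHL24, PSAT1 and PSPH differed by -1.60, -1.40 and -1.27, where the ones standing for these genes differed by -0.19, -0.09 and 0.13. In ALDH- cells none of the 48 probe sets differed by 2-fold, against 0.220% higher and 0.0593% lower.

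Genes that neighbour these in the pathway were taken from 8 further lists, and 80 of the 89 genes were measured. For the mean ALDH difference 25 of the 80 were higher and 11 lower in the same limma model, against 13.5% and 9.58% of all genes, with a median of 0.12 on the log2 scale against 0.03 over all genes. In the control arrays alone 13 of the 80 were 2-fold higher and 4 were 2-fold lower, against 6.09% and 4.40%. The counts of each list below are those of the limma model, to be read against the same 13.5% and 9.58%. These lists, too, were chosen with earlier results of these data known. Of 10 amino acid transporters 8 were measured and 5 were higher (13.5% of all genes) and none lower (9.58%), with a median of 0.62. SLC1A4, a carrier of serine, alanine and cysteine, led with 2.35 ± 0.27 (SE, limma adjusted p = 9.48e-05), followed by SLC43A1 (1.43), SLC1A5 (1.20) and SLC3A2 (0.81).

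The cytosolic tRNA synthetases split by list. Among 14 genes known as ATF4 targets, 13 synthetases and the tRNA exporter XPOT, 13 were measured, 9 were higher (13.5% of all genes) and none lower (9.58%), with a median of 0.52. AARS1 (1.68 ± 0.14 SE, limma adjusted p = 1.41e-05), CARS1 (1.46), SARS1 (1.38) and GARS1 (0.98) differed most. Of 7 further synthetases 5 were measured, none was higher and HARS1 was lower (-0.80 ± 0.20 SE, limma adjusted p = 0.014), with a median of -0.08; FARSB (0.31), RARS1 (-0.28) and KARS1 (0.13) did not pass. Whether the 2 lists differ was not tested. The composite site was found in the promoter windows of 7 of 11 genes of the first list and in 0 of 6 of the second. The 7 were AARS1, CARS1, GARS1, IARS1, MARS1, NARS1 and TARS1. The lists were drawn up by whether a gene is a known ATF4 target, so that this contrast can follow from that choice.

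The other arms of the unfolded protein response, which ATF6 and XBP1 drive through chaperone genes, held calls in both directions. Of 15 measured genes 4 were higher (ATF6 0.86, HERPUD1 0.83, ERN1 0.79 and XBP1 0.67) and CRELD2 was lower at -0.75, with a median of 0.21. Among all genes 13.5% were higher and 9.58% lower, so that 1 lower gene of 15 is near the background. HSPA5, the chaperone BiP, was at 13.20, 13.07, 13.01 and 13.05 and did not pass (0.11 ± 0.09 SE, limma adjusted p = 0.378). The endoplasmic reticulum stress element was read as CCAAT and CCACG with 9 bases of any kind between them, and searched on both strands. It was found in 5 of the 15 genes of this list with a window (CALR, CRELD2, HSP90B1, HSPA5 and XBP1). Among the 26 ATF4 pathway genes it was found in 0, and among all genes in 0.0916%. The ATF4 composite site was found in 1 of the 15, HERPUD1, against 4.46% of all genes.

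**Figure D5:**
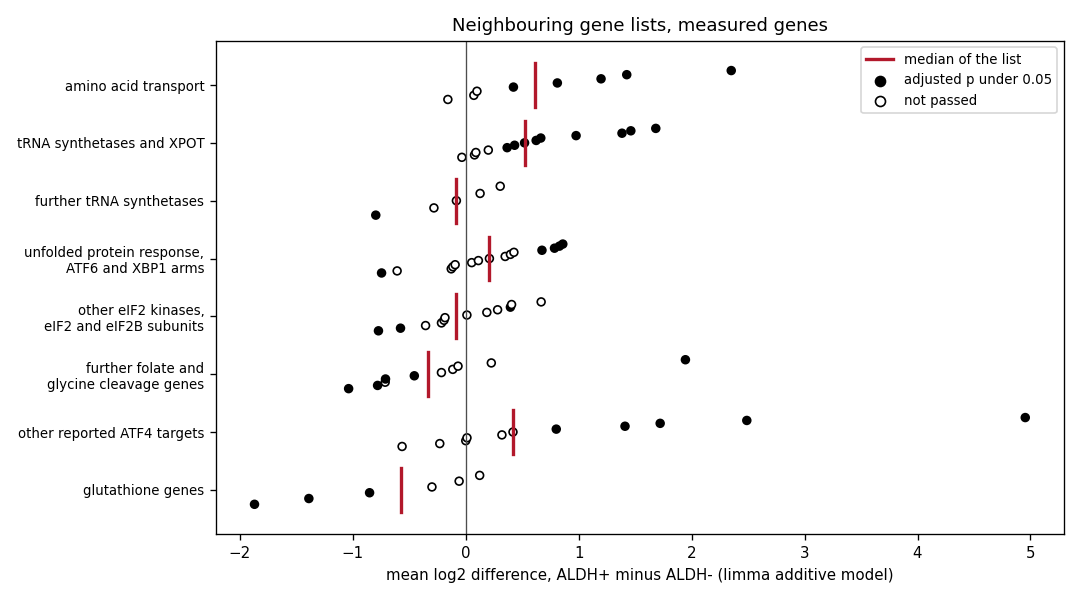
Mean log2 difference, ALDH+ minus ALDH- (horizontal axis, additive limma model), of each measured gene in the 8 neighbouring lists; filled points passed at an adjusted p under 0.05 and red bars are list medians. The medians run from 0.62 for amino acid transport to -0.58 for the glutathione genes.

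Other genes around eIF2 held calls in both directions. This list held 12 genes, for further eIF2 kinases, eIF2 and its exchange factor eIF2B, together with PPP1R15B, DELE1 and OMA1. Their median was -0.09, with a range from -0.77 to 0.67. EIF2S2 was higher (0.40), and EIF2B2 (-0.58) and EIF2B3 (-0.77) were lower. Those counts are near the 13.5% higher and 9.58% lower of all genes. DELE1, which relays mitochondrial stress to the kinase HRI, and EIF2AK1, which encodes HRI, were at 0.67 and 0.41 and did not pass. Of 13 further genes of folate metabolism and glycine cleavage, cytosolic and mitochondrial, 10 were measured. Of these, 1 was higher, near the 13.5% of all genes, and 4 were lower, against 9.58%. AMT of the glycine cleavage system was higher (1.94 ± 0.29 SE, limma adjusted p = 0.000531). Thymidylate synthase, TYMS, was lower (-1.04 ± 0.12 SE, limma adjusted p = 0.000118), as were 3 genes of mitochondrial proteins, MTHFD2L (-0.78), SLC25A32 (-0.71) and DLD (-0.46). In the control arrays, without ALDH+ DOX, these 3 differed by less, at -0.49, -0.36 and -0.32, than in the DOX arrays, at -1.07, -1.06 and -0.59. SHMT1, the cytosolic counterpart of SHMT2, was at -0.71 and did not pass (limma adjusted p = 0.0847).

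Of 6 measured genes of glutathione synthesis, reduction and breakdown, 3 were lower (9.58% of all genes) and none higher (13.5%). Their median was -0.58, with -0.33 for control and -0.82 for DOX arrays. GCLM, the modifier subunit of the rate-limiting ligase, was at 9.99, 9.13, 11.50 and 11.36 (-1.87 ± 0.23 SE, limma adjusted p = 0.000187). CHAC2, a relative of CHAC1 that also degrades glutathione, was at 8.93, 8.56, 10.20 and 10.07 (-1.39 ± 0.25 SE, limma adjusted p = 0.00211), and GCLC, the catalytic subunit, was lower by less (-0.85 ± 0.27 SE, limma adjusted p = 0.0401). The GCLC value rests on ALDH+ DOX: its levels were 10.51, 9.30, 10.78 and 10.73, and it differed by -0.27 for control and -1.43 for DOX arrays. GSS, which completes glutathione synthesis, was at 0.12, GSR, glutathione reductase, at -0.30 and GGCT, which acts in its turnover, at -0.06, and none of these passed. Of 12 other reported ATF4 targets 11 were measured and 5 were higher, against 13.5% of all genes: INHBE, GDF15 (2.49), TXNIP (1.72), ATF3 (1.41) and EIF4EBP1 (0.80). INHBE, an inhibin subunit, was at 10.40 and 10.37 in the ALDH+ arrays and under 6 in both ALDH- arrays (5.58 and 5.28), so that it was measured only through the ALDH+ arrays. Against the level of 6 it was at least 20.9-fold higher.

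ATF3 and JDP2, related stress factors, had unequal ALDH differences in the control and DOX arrays. ATF3 differed by 2.14 in control and 0.68 in DOX arrays, and by -1.70 between ALDH+ DOX and ALDH+ control. JDP2 was at 10.20, 8.17, 9.13 and 9.22, low in ALDH+ DOX, and did not pass (limma adjusted p = 0.992).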

How the data were processed

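RNA of 4 groups of SUM159 cells was hybridised to 1-colour Affymetrix arrays, 1 array per group. The authors deposited log2 probe set values, made with RMA per the submitters' processing notes; its version was not given in the sources used here. No further scaling was applied. RMA includes quantile normalisation, so that a shift of all genes together would not be seen, and the number of arrays limits the precision.

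Probe sets were named from a platform annotation of 2016. Of 54675 probe sets, 62 were controls, 41091 had 1 gene, 1801 several and 11721 none. The probe set with the highest mean stood for a gene (19775 genes). A size call needed a 2-fold difference, with 1 of both arrays or more reaching 6. The additive model was fitted in R 4.3.3 on 12365 genes with limma 3.58.1, using lmFit and eBayes with trend, with 1 residual and 11.6 prior degrees of freedom, two-sided p-values and Benjamini-Hochberg adjustment over all of them; the fit was tested on simulated data. A difference in response between fractions counts as error in the additive model. The simulated data held no DOX effect and the same noise for all genes, so that they did not test such a difference. The members, lists, thresholds and motifs were chosen with earlier results of these data known. All listed genes were named, and from each neighbouring list the genes of largest mean ALDH difference, up to 4; further genes named there, among them JDP2, HSPA5, GSS, GGCT and those completing a count of calls, were picked after their values were seen. Alternatives were median centring, cyclic loess, a floor, no filter, a level of 7, averaging all probe sets of a gene, no shared probe sets, 1.5-fold, and eBayes without trend or robust. Promoter and microRNA sequences came from RefSeq (GRCh38.p14). Python 3.11.15 and pandas 2.3.3 were used.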

Additional observations from a re-analysis of the deposited data

Results flagged for a closer look

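The DOX difference of ATF5 had opposite signs in the 2 fractions, 1.29 in ALDH+ and -0.22 in ALDH- cells, which lie 1.5 apart on the log2 scale. With 1 array per group this difference was not tested. A count of 1 such gene among the 27 members is near the 3.78% of all genes that were higher by this measure. The other 3 ATF5 probe sets, at 0.38, -0.01 and -0.01 in ALDH+ cells, differed by less.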

How the results depend on the processing

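The count of members higher in the ALDH comparisons stayed within 1.5 times its value under every alternative run. It was 11 to 18 in the DOX arrays, 12 to 17 in the control arrays and 15 to 20 in the additive model. The lowest size counts came without shared probe sets, where 21 members were left in the control arrays and 20 in the DOX arrays. EIF2S1, the 1 lower call of the additive model, was lost, leaving 0, without a filter on level, with the mean of probe sets, without shared probe sets and without trend; robust estimation, centring, loess, the floor and a level of 7 kept it. At 1.5-fold the lower counts were 1 in the control and 1 in the DOX comparison of fractions, 2 for DOX in ALDH+ and 1 for DOX in ALDH- cells. With the mean of probe sets and without shared probe sets, DOX in ALDH+ cells had 0 higher and 1 lower member, and 1 was lower in the ALDH comparison of DOX arrays. The lower member was EIF2AK4 in each case. Members passing for DOX numbered 0 under every alternative of the additive model. No called member reversed. Scaling moved the median of all genes by less than 0.1. Leaving out an array was not run, since it leaves no residual degree of freedom. No paired analysis was possible because the groups share a single replicate number; the additive model has treatment as a term.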
